A study of Homo sapiens with 6 samples.

Results

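The genes described here encode the cytosolic chaperonin CCT (also called TRiC) and the mitochondrial chaperonin pair HSP60 and HSP10. The 10 members were chosen by name among the 60728 genes of the count table. They are the 8 CCT subunit genes TCP1, CCT2, CCT3, CCT4, CCT5, CCT6A, CCT7 and CCT8, together with HSPD1 (HSP60) and HSPE1 (HSP10). Transcripts were counted by RNA-seq in JJN3, an established human multiple myeloma cell line labelled wild type, grown in a DMEM and IMDM mixture with serum. There were 3 groups of 2 libraries each. The first group received the vehicle DMSO, with control as its only time label, the second WNK463 during 2 h and the third WNK463 during 6 h. WNK463 inhibits WNK kinases, which regulate cation-chloride cotransporters. The sample protocol gives 5 µM of it, whereas the design text states 1 µM, and which applies could not be settled. The labels do not state whether replicates were separate cultures, and the p-values below measure spread between these libraries, which may be technical. Because no DMSO library is labelled with 2 h or 6 h, time in culture and WNK463 cannot be told apart.

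CCT is a cytosolic folding machine built of stacked rings, each holding 1 copy of each of its 8 related subunits, and it uses ATP to close a lid over an unfolded protein. Actins and tubulins depend on it, as do many WD-repeat proteins such as the mitotic activator CDC20. Work in yeast placed CCT1 (TCP1), CCT2, CCT4 and CCT5 on the side of the ring that binds ATP strongly, and CCT3, CCT6, CCT7 and CCT8 on the other. HSP60 forms the corresponding chamber in the mitochondrial matrix and is capped by HSP10. Myeloma cells are malignant plasma cells, which secrete large amounts of protein and carry a heavy folding load.

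The start regions of the mitochondrial pair lie head to head, and windows of 4 members are shown, the mitochondrial pair and the CCT genes at either end of the 6 h estimates, because the searched letters they hold differ. RefSeq (GRCh38.p14) gives windows of 300 bases, with 250 before and 50 after an annotated start, for 9 of the 10 members (12 windows). In the HSPE1 window (chr2:197500129-197500428, plus strand) capitals mark CACGTG, the E-box letters bound by MYC and related factors. In the second HSPD1 window (chr2:197499791-197500090, minus strand) capitals mark GAANNTTC and TTCNNGAA, the inverted repeats of heat shock elements, which here overlap each other. In the windows of TCP1 (chr6:159789553-159789852, minus strand) and CCT7 (chr2:73234058-73234357, plus strand) capitals mark any of these and also CCAAT and CGGAAGT, a core ETS-factor sequence, on either strand. Among the CCT genes with a window, TCP1 had the lowest 6 h estimate and CCT7 the highest.
HSPE1: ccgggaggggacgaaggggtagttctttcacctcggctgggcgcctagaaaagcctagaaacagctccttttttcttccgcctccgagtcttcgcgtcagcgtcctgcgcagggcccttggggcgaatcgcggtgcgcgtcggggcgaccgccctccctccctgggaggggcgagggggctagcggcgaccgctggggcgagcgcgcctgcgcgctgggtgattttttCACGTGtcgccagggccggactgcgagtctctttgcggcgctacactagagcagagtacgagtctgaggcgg
HSPD1: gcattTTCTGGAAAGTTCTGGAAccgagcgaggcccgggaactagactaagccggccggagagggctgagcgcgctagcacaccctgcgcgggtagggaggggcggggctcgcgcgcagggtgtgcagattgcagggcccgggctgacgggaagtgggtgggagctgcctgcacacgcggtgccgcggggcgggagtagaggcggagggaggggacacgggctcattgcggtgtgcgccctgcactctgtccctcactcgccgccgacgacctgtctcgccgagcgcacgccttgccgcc
TCP1: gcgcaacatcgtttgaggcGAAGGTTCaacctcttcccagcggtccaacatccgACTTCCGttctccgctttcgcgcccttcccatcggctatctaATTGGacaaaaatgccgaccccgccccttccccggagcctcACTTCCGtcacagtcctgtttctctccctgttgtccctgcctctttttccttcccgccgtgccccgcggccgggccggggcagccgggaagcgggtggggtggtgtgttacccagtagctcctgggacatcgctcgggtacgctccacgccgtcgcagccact
CCT7: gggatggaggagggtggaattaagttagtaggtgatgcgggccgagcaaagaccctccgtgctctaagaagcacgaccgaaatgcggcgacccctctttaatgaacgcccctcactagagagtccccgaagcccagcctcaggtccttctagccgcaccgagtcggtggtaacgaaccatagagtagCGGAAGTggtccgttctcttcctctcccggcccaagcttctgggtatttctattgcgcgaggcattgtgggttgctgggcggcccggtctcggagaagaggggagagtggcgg

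The HSPE1 window overlaps the other HSPD1 window (chr2:197500225-197500524, minus strand) by 204 bases, and the corresponding annotated starts lie 105 bases apart. The same CACGTG, at chr2:197500357-197500362, begins 22 bases before the HSPE1 start and 88 bases before that HSPD1 start. It occurred in the windows of HSPD1 and HSPE1 and in no window of the 7 CCT genes that have one. Of all 35116 windows, 7.26% held CACGTG on either strand, a motif that reads the same on both. GAANNTTC was found in windows of CCT2, HSPD1 and TCP1 and in 6.77% of all windows. TTCNNGAA was found in CCT4 and HSPD1 and in 7.74% of all windows. CCAAT stood in windows of CCT2, CCT3, CCT8 and TCP1 and in 34.6% of all windows, and CGGAAGT in CCT2, CCT7 and TCP1 and in 6.83%. A match describes letters only, and binding was not measured.

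The counts behind these values were deep. Counts assigned to genes ranged between 18013790 and 24002291 per library, and a count of 3 corresponded to at most 0.167 per 1000000 assigned counts. The levels below are in CPM, scaled by TMM. For each library the summed counts in the 15548 genes tested were multiplied by its TMM scaling factor. The levels are counts per 1000000 of that product. The spread between replicates exceeded sampling noise in each group, with a chi-square per degree of freedom of 8.41 in DMSO, 4.15 at 2 h and 3.57 at 6 h. All 9 plasma cell markers had counts in every library, with a summed level between 1862 and 2178 CPM. IRF4 and POU2AF1 were the highest of them in each library, and SLAMF7 was the lowest, with 2.10 to 5.60 CPM. The 5 T cell markers summed to at most 0.756 CPM, with CD3D and CD3G at 0 throughout, the 5 fibroblast markers to at most 0.979 CPM, with LUM at 0, and the 5 myeloid markers to between 3.23 and 4.59 CPM, mainly S100A8 and CSF1R.

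Counting ignored strand and left out fragments that touch exons of more than 1 gene, so members that share exons are counted from part of their length. On hg38, CCT5 (ENSG00000150753.12) spans chromosome 5 from 10249929 to 10266389, and 30.8% of its 5638 exonic bases are shared with the antisense gene ENSG00000271980. That antisense gene itself held on average 3.8 counts per library, against 17944 for CCT5. TCP1 (ENSG00000120438.12, chromosome 6 from 159778498 to 159789703) shares 12.4% of its exonic bases, 454 of them with the antisense gene ACAT2, which had 1172 counts on average. HSPE1 (ENSG00000115541.11, chromosome 2 from 197500140 to 197503449) shares 17.9% of 1823 exonic bases, with HSPD1 and with the readthrough gene HSPE1-MOB4. HSPD1 (ENSG00000144381.17, chromosome 2 from 197486584 to 197516737) shares 3.27%. CCT4 shares 16.9% with antisense genes, CCT8 2.54%, and CCT2, CCT3, CCT6A and CCT7 share none.

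Many members also have pseudogenes with similar sequence, and fragments with a mapping quality under 20 were not counted. HSPE1 has 26 named pseudogenes in the table and HSPD1 has 18, which held counts equal to 0.89% and 0.209% of their parents' counts. The CCT6A pseudogene CCT6P1 held 284 counts per library on average, 1.83% of the CCT6A count. Absolute levels of members with many copies, HSPE1 above all, are therefore uncertain.

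In DMSO the 8 CCT genes did not have equal levels. Per kilobase of exonic length, CCT3 stood highest with 299 ± 4.20 CPM per kb (SD, n = 2), followed by HSPD1 with 275 ± 11.1, CCT6A with 227 ± 1.27, CCT5 with 172 ± 3.71 and TCP1 with 125 ± 5.12 CPM per kb. CCT8 followed with 95.2 ± 5.67 CPM per kb, then CCT4 with 86.3 ± 4.41, CCT2 with 81.2 ± 1.34 and CCT7 with 77.6 ± 4.79 CPM per kb. The ranges of CCT2 and CCT7 overlapped, and all other neighbours in this order were apart in both libraries. Places of members that share exons depend on the length used. Per kb of exonic bases that no other gene shares, CCT5 (249 CPM per kb) stood above CCT6A (227) in DMSO. On that scale CCT4 (104) stood above CCT8 (97.7). HSPE1 stood lowest at 33.5 ± 6.29 CPM per kb, with the limits on its level given above. The 8 CCT subunits stand in the ring in equal number. Per kb of exonic length, the highest and the lowest of them differed 3.87 ± 0.162-fold. That length joins all annotated exons of a gene, so the ratio need not be one of transcript numbers.

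With the full exonic length, the first 6 places of this order and the last were the same at 2 h and 6 h. Per unshared kb CCT5 stood above CCT6A at both times (255 against 219 CPM per kb at 2 h, 184 against 159 at 6 h). The levels that follow use the full exonic length. At 2 h the levels of CCT4 and CCT7 overlapped, with 83.8 ± 2.23 and 81.5 ± 1.49 CPM per kb. At 6 h CCT7 (68.2 ± 2.37 CPM per kb) stood above CCT4 (62.8 ± 3.63), and CCT4 overlapped CCT2 (60.7 ± 0.626). This change of place depends on the length used. Per unshared kb the mean of CCT4 stood above that of CCT7 in each group. The values were 104 against 77.6 CPM per kb in DMSO, 101 against 81.5 at 2 h and 75.6 against 68.2 at 6 h. On that scale CCT2 had 60.7 CPM per kb at 6 h.

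The comparison of WNK463 for 2 h with DMSO asked for the first changes after the inhibitor. None of the 10 chaperonin transcripts was called at 2 h. A gene was called at an adjusted p under 0.05 in edgeR's quasi-likelihood test over all 15548 genes tested, and 17.0% of all genes were called in this comparison, 8.68% higher and 8.32% lower. At an unadjusted p under 0.05 the test gave 1 member, HSPE1, DESeq2 called 0 members and limma voom called 1. The 8 CCT estimates lay between -0.08 and 0.07 on the log2 scale, with a median of -0.00, beside -0.005 for all genes tested. The 95% intervals of the 8 lay within -0.20 and 0.20. Taken as summed CPM, the 8 subunits had 4797 and 4782 CPM at 2 h, against 4747 and 4810 CPM in DMSO, so the groups overlapped.

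Single members at 2 h stood close to their DMSO level. HSPD1 had 1147 and 1154 CPM at 2 h and 1101 and 1166 CPM in DMSO (log2 change 0.02 ± 0.050 SE, adjusted p = 0.830). CCT7 had 289 and 296 CPM at 2 h and 291 and 266 CPM in DMSO (0.07 ± 0.0630, adjusted p = 0.498), with overlapping groups. CCT3 lay above DMSO in both 2 h libraries (1182 and 1205 CPM against 1165 and 1143 CPM) without passing the test (0.05 ± 0.0490, adjusted p = 0.565). Both libraries lay above both DMSO libraries in 2 members, CCT3 and CCT5, and below in 3, TCP1, CCT2 and CCT6A. Among all genes these shares were 27.1% and 27.4%.

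HSPE1 was the member with the lowest 2 h estimate. It had 53.4 and 46.4 CPM at 2 h, against 69.1 and 52.9 CPM in DMSO, a log2 change of -0.29 ± 0.112 with a 95% interval of -0.52 to -0.06 (adjusted p = 0.0669). The 2 h libraries overlapped the DMSO range, and the DMSO replicates were far apart. Leaving out DMSO replicate 2 (-0.46, adjusted p = 0.00132) or 2 h replicate 1 (-0.39, adjusted p = 0.0432) made it a call. Without DMSO replicate 1 the estimate was -0.09 (adjusted p = 0.703), and without 2 h replicate 2 it was -0.19 (adjusted p = 0.455). TCP1 was called only without DMSO replicate 1 (-0.13, adjusted p = 0.0367, against -0.08 with all libraries).

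**Figure D1:**
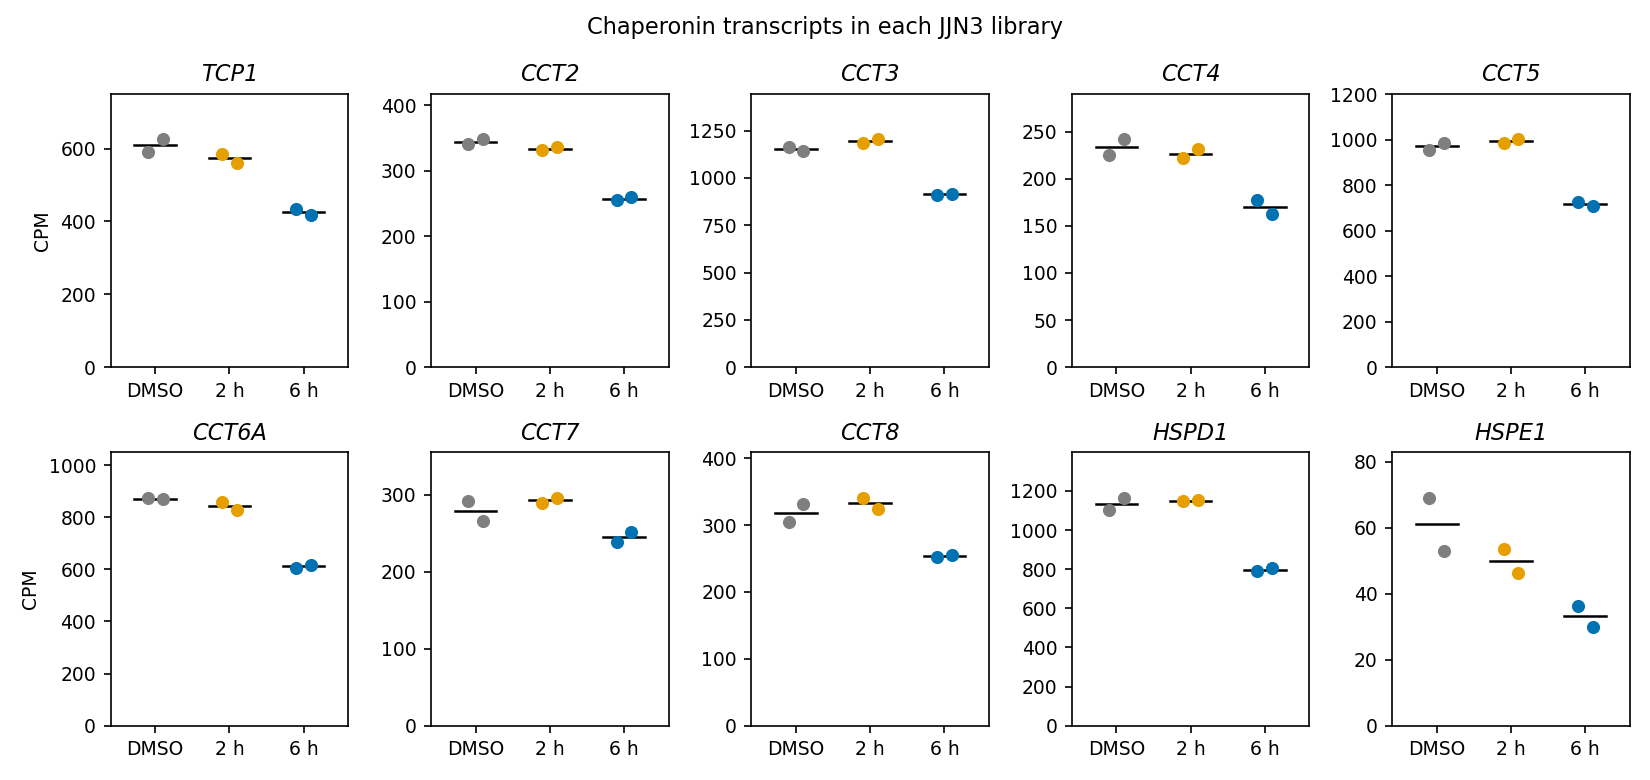
Level of each member in CPM (vertical axis, from 0) in each library, with DMSO, WNK463 2 h and WNK463 6 h from left to right. Points are libraries (2 per group) and horizontal lines are group means. In all 10 panels both 6 h points lie under all DMSO and 2 h points.

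The comparison of WNK463 for 6 h with DMSO covered the later change. All 10 chaperonin transcripts fell at 6 h. Of all genes tested, 36.6% were called, 18.6% lower. In all 10 members both 6 h libraries lay below both DMSO libraries, as in 33.1% of all genes, and in 0 members they lay above both, as in 32.7%. The median log2 change was -0.43 over the 8 CCT genes and -0.45 over all 10, beside -0.005 over all genes tested. In these bulk samples fewer cells of a kind and less RNA per cell cannot be told apart, and CPM measures a level relative to the other counted RNA, not an amount per cell.

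Among the subunits on the strongly ATP-binding side, TCP1, the founding CCT subunit, had 591 and 626 CPM in DMSO, 586 and 561 CPM at 2 h, and 435 and 417 CPM at 6 h. The 6 h libraries stood apart from the 4 others, which lay close together. Its log2 change at 6 h was -0.51 ± 0.0561 (adjusted p = 2.70e-10), a level of 0.700 times DMSO. CCT5 had 956 and 986 CPM in DMSO, 987 and 1003 CPM at 2 h, and 725 and 709 CPM at 6 h, with a 6 h change of -0.44 ± 0.0509 (adjusted p = 1.36e-09).

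CCT4 had 225 and 242 CPM in DMSO, 222 and 231 CPM at 2 h, and 177 and 163 CPM at 6 h. Its 6 h change was -0.46 ± 0.0674 (adjusted p = 3.04e-07), and its DMSO and 2 h libraries overlapped. CCT2 had 340 and 348 CPM in DMSO, 331 and 336 CPM at 2 h, and 255 and 259 CPM at 6 h (-0.42 ± 0.0602, adjusted p = 1.87e-07). The replicates of CCT2 differed by only a few CPM in each group.

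On the other side of the ring CCT6A, the zeta subunit of most tissues, had 875 and 868 CPM in DMSO, 858 and 826 CPM at 2 h, and 606 and 617 CPM at 6 h (-0.51 ± 0.0521, adjusted p = 4.30e-11). CCT3, the CCT transcript with the highest level, had 1165 and 1143 CPM in DMSO, 1182 and 1205 CPM at 2 h, and 912 and 916 CPM at 6 h (-0.34 ± 0.0491, adjusted p = 2.77e-07). Both genes stood well below DMSO in both 6 h libraries, CCT6A at 0.702 and CCT3 at 0.792 times DMSO. CCT8 had 305 and 332 CPM in DMSO, 341 and 324 CPM at 2 h, and 252 and 255 CPM at 6 h (-0.33 ± 0.0621, adjusted p = 2.92e-05).

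CCT7 had the smallest estimate in size. It had 291 and 266 CPM in DMSO, 289 and 296 CPM at 2 h, and 239 and 251 CPM at 6 h. The 6 h libraries lay below the lower DMSO library by a small margin. Its 6 h change was -0.19 ± 0.0633 with a 95% interval of -0.31 to -0.06 (adjusted p = 0.0176). The interval overlapped those of CCT2 (-0.54 to -0.30), CCT3 (-0.44 to -0.24) and CCT8 (-0.45 to -0.20) and lay above those of TCP1 (-0.63 to -0.40), CCT4 (-0.60 to -0.32), CCT5 (-0.54 to -0.34) and CCT6A (-0.62 to -0.41). Differences between members were not tested. CCT7 was no longer called when DMSO replicate 1 was left out (-0.12, adjusted p = 0.0733), nor without 6 h replicate 1 (-0.15, adjusted p = 0.242) or 6 h replicate 2 (-0.22, adjusted p = 0.0613), nor with library size alone as the scaling (-0.15, adjusted p = 0.0553).

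The mitochondrial pair fell as well. HSPD1, the HSP60 chamber subunit, had 1101 and 1166 CPM in DMSO, 1147 and 1154 CPM at 2 h, and 789 and 804 CPM at 6 h. The DMSO and 2 h values lay together and the 6 h values well under them. Its 6 h change was -0.51 ± 0.0503 (adjusted p = 1.86e-11), near those of TCP1 and CCT6A. HSPE1, the HSP10 lid, had 69.1 and 52.9 CPM in DMSO, 53.4 and 46.4 CPM at 2 h, and 36.4 and 30.0 CPM at 6 h. Its 6 h change of -0.88 ± 0.115 (adjusted p = 2.68e-08) had a 95% interval of -1.11 to -0.64, below that of HSPD1 (-0.61 to -0.41). It stood at -0.67 without DMSO replicate 1 and at -1.06 without DMSO replicate 2, and was called in both.

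The HSPE1 count as a percentage of the HSPD1 count was 6.28% and 4.54% in DMSO, 4.65% and 4.03% at 2 h, and 4.61% and 3.73% at 6 h. The 6 h and DMSO ranges of this ratio overlapped, through DMSO replicate 2. An exact permutation test of 2 against 2 libraries cannot give a two-sided p below 0.333, so none is given.

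**Figure D2:**
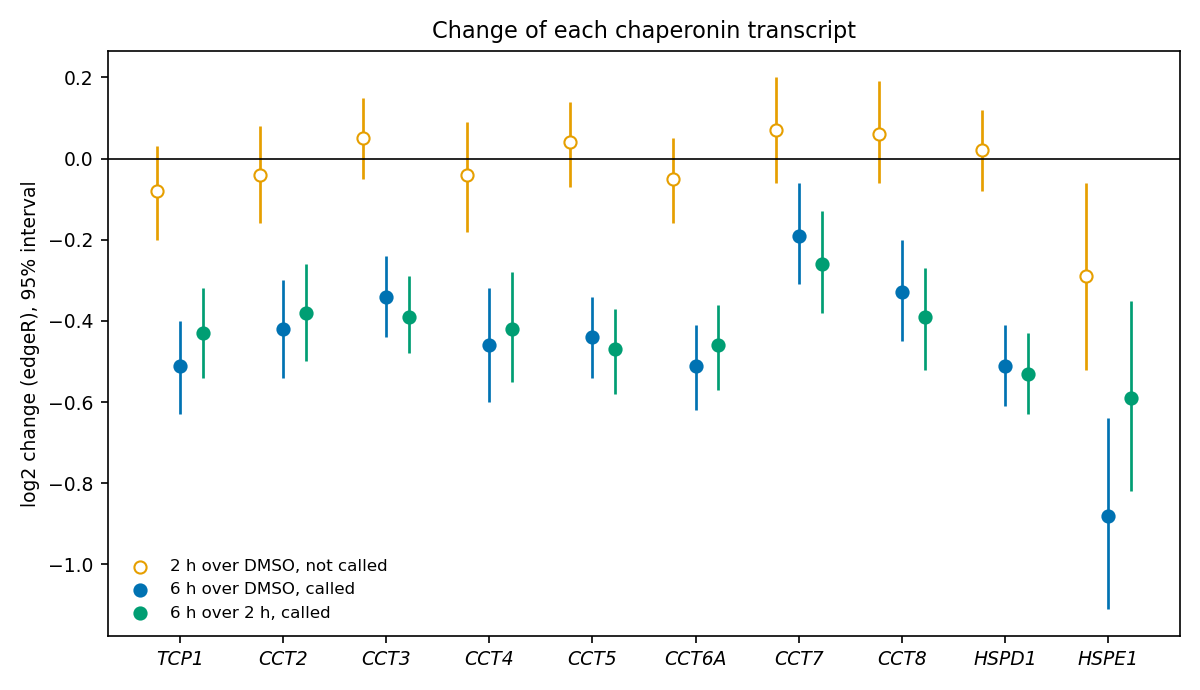
Log2 change of each member in edgeR (vertical axis) with its 95% interval, for 2 h over DMSO, 6 h over DMSO and 6 h over 2 h. Filled points were called at an adjusted p under 0.05. No 2 h point is filled, and all 6 h points are, from -0.19 for CCT7 to -0.88 for HSPE1.

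The comparison of 6 h with 2 h of WNK463 covered the change between these times. HSPE1 already had a 2 h estimate over DMSO of -0.29 (95% interval -0.52 to -0.06, not called). All 10 members were lower at 6 h than at 2 h, where 24.3% of all genes were called and 13.1% were called lower, and in all 10 both 6 h libraries lay below both 2 h libraries, as in 30.2% of all genes, and in 0 members above both (31.8%). Over all genes TMM scaling gave 1731 calls higher and 2041 lower, and library size alone gave 2409 higher and 1523 lower, with a CCT median of -0.34 in place of -0.41. The log2 changes lay between -0.26 (CCT7, adjusted p = 0.00166) and -0.59 (HSPE1, adjusted p = 0.000108), with a median of -0.42. The largest in size among CCT genes were those of CCT5 (-0.47 ± 0.0509, adjusted p = 5.60e-10) and CCT6A (-0.46 ± 0.0520, adjusted p = 2.00e-09). CCT7 was not called without 6 h replicate 1 (-0.22, adjusted p = 0.0882). The 6 h libraries are shared with the comparison with DMSO, so both sets of values rest in part on the same data.

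Summed over the 8 subunits, CCT transcripts had 3600 and 3586 CPM at 6 h, against 4747 and 4810 CPM in DMSO, a change of -24.8% in the mean. HSPD1 and HSPE1 together had 825 and 834 CPM at 6 h, against 1170 and 1219 CPM in DMSO, a change of -30.6%. The replicates of each sum lay far closer together than the groups.

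While the CCT pool became smaller, the mean shares of its genes shifted by between -1.38 (CCT6A) and 1.26 (CCT3) percentage points. Of the summed CPM per kb of the 8 genes, CCT3 made up 27.0% at 6 h and 25.7% in DMSO, and CCT6A 18.1% at 6 h and 19.5% in DMSO. CCT5 made up 14.5% at 6 h and 14.8% in DMSO, and TCP1 9.94% at 6 h and 10.7% in DMSO. The mean share of CCT7 rose from 6.68% in DMSO to 7.77% at 6 h, a gain of 1.10 percentage points. Its 6 h libraries (7.57% and 7.97%) lay above its DMSO libraries (7.01% and 6.34%). The decline of CCT6A was the largest in size, at -1.38 points, and CCT2 (-0.07) moved least. The highest and the lowest subunit differed 3.92 ± 0.0133-fold at 6 h, against 3.87 ± 0.162-fold in DMSO.

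These shares depend on the length used, since shared exons yield no counts. With only the exonic bases that no other gene shares, CCT5 made up 19.1% at 6 h and 19.5% in DMSO, and CCT3 24.6% at 6 h and 23.4% in DMSO. CCT7 gained 1.02 points and CCT6A changed by -1.21 points on that scale, so directions were the same.

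**Figure D3:**
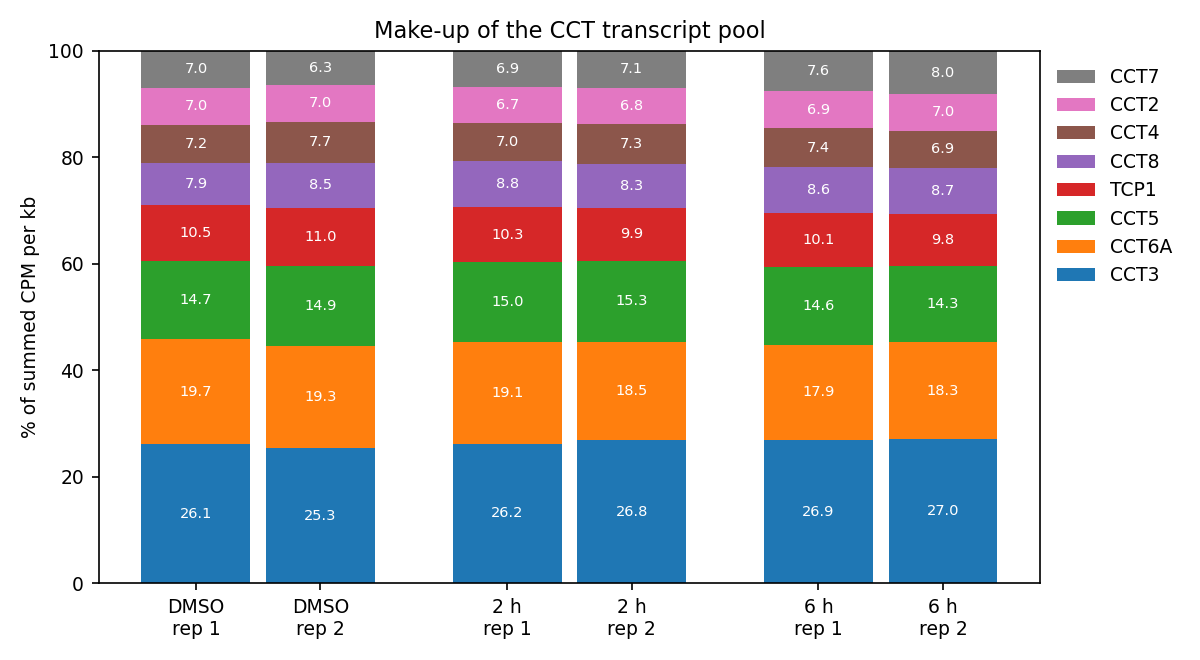
Share of each CCT gene in the summed CPM per kb of the 8 genes (vertical axis, percent) in each of the 6 libraries, with DMSO, 2 h and 6 h from left to right. Over the 6 libraries CCT3 lies between 25.3% and 27.0% and CCT7 between 6.34% and 7.97%.

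Many other transcripts followed the same course. The 10621 genes with counts in every library and a mean of at least 4 CPM were ranked, members included. Of these, 797 had a pattern over the 6 libraries within 0.1 of the CCT median, as a root mean square distance of centred log2 CPM. Most members are among the 797, but the CCT subunits themselves define that median, so their nearness to it was partly fixed in advance. The 5 closest genes outside the 10 were NAA20 (distance 0.0193), NDUFS3 (0.0240), DDX1 (0.0245), ANP32A (0.0249) and SLC39A14 (0.0258). NAA20, a catalytic subunit of an N-terminal acetyltransferase, had 65.2 and 64.6 CPM at 6 h against 87.5 and 88.7 CPM in DMSO. NDUFS3, a respiratory complex I subunit, shares 22.3% of its exonic length with other genes. CCT2 was the subunit nearest to the median (0.0223) and HSPE1 the member farthest from it (0.2450). The subunit CCT7 (0.1107) also lay outside the limit of 0.1.

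Prefoldin and related cochaperones hand proteins to CCT or act with it. Of 10 such genes 3 fell at 6 h and none rose, beside 18.6% of all genes called lower and 18.0% called higher, and the median log2 change was -0.20. Without DMSO replicate 1 there was also 1 rise, and limma voom gave 4 falls. PDCD5, which binds CCT, had 34.2 and 38.3 CPM at 6 h against 55.1 and 51.5 CPM in DMSO (-0.56 ± 0.104, adjusted p = 2.68e-05). The prefoldin subunits PFDN2 (-0.47 ± 0.102, adjusted p = 0.000254) and PFDN6 (-0.63 ± 0.148, adjusted p = 0.000642) were the other two. PFDN6 had 18.1 and 19.5 CPM at 6 h against 35.5 and 22.7 CPM in DMSO, shares 27.3% of its exonic length, and stood at -0.28 (adjusted p = 0.180, not called) when DMSO replicate 1 was left out. The CCT cofactors PDCL (0.17, adjusted p = 0.355) and PDCL3 (0.23, adjusted p = 0.296) were not called. PFDN1 (-0.14), VBP1 (-0.16), PFDN4 (-0.18), PFDN5 (-0.22) and TXNDC9 (-0.22) had negative 6 h estimates and were not called either. At 2 h edgeR called 0 of the 10, DESeq2 and limma voom likewise, with 0 at an unadjusted p under 0.05. Without DMSO replicate 1 there was 1 call higher and without DMSO replicate 2 there was 1 call lower.

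Of 19 transcripts of proteins that CCT folds, 9 fell at 6 h and none rose, with a median of -0.18, where 18.6% of all genes were called lower and 18.0% higher. Under 6 of the alternatives, among them those without DMSO replicate 1, DMSO replicate 2 or 6 h replicate 1, there was 1 rise, and the falls numbered between 7 and 9. At 2 h 2 of the 19 were called higher and 3 lower, near the shares of 8.68% and 8.32% over all genes. ACTB, cytoplasmic beta-actin, had 4407 and 4604 CPM at 6 h against 5692 and 6198 CPM in DMSO (-0.40 ± 0.0408, adjusted p = 4.45e-11). ACTG1, gamma-actin, had 1957 and 1906 CPM at 6 h against 2564 and 2586 CPM in DMSO (-0.41 ± 0.0437, adjusted p = 1.06e-10). Both actins lay above DMSO in both 2 h libraries and were called higher there (0.14 and 0.17), but not without 2 h replicate 2 (0.12, adjusted p = 0.175, and 0.15, adjusted p = 0.137). With library size alone ACTB was not called at 2 h either (0.11, adjusted p = 0.0509). TUBA4A, an alpha-tubulin, had a 6 h change of -0.70 ± 0.0790 (adjusted p = 6.35e-10) and shares 18.7% of its exonic length. CDC20 fell at 2 h (-0.46 ± 0.0689, adjusted p = 1.87e-06) and at 6 h (-0.56 ± 0.0692, adjusted p = 5.66e-09). Actin and tubulin genes have many pseudogenes, so their levels are uncertain.

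In mitochondria HSP60 works beside the matrix HSP70 system. Among all genes 18.6% were called lower at 6 h and 18.0% higher. Of 7 tested genes of the matrix HSP70 system and other mitochondrial chaperones, 4 fell at 6 h and none rose. With library size alone, and without DMSO replicate 1, there was also 1 rise. At 2 h edgeR and DESeq2 called 0 of the 7 and limma voom 1, with 2 at an unadjusted p under 0.05, and leaving out DMSO replicate 1 gave 1 call in each direction and DMSO replicate 2 gave 1 call higher. HSPA9, the mitochondrial HSP70, had 589 and 592 CPM at 6 h against 704 and 755 CPM in DMSO (-0.31 ± 0.0538, adjusted p = 8.94e-06). Its nucleotide exchange factor GRPEL1 had 38.7 and 47.0 CPM at 6 h against 66.1 and 73.4 CPM in DMSO (-0.70 ± 0.101, adjusted p = 1.90e-07). The J-protein DNAJA3 (-0.50 ± 0.0771, adjusted p = 8.04e-07) and the HSP90 family member TRAP1 (-0.36 ± 0.0689, adjusted p = 4.07e-05) were the other two, and TRAP1 shares 29.5% of its exonic length. The 4 calls were made under each of the 13 alternatives. CLPB (0.18, adjusted p = 0.0789), GRPEL2 (0.02, adjusted p = 0.891) and HSCB (-0.17, adjusted p = 0.627) were not called.

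Protein import genes, whose products bring HSP60 and most other matrix proteins into mitochondria, fell for the most part. Of 22 tested members 17 fell at 6 h and none rose, with a median of -0.53, while 18.6% of all genes were called lower and 18.0% higher. Leaving out any library in turn left between 14 and 16 falls. TOMM40, the outer membrane pore, had 79.8 and 83.7 CPM at 6 h against 182 and 154 CPM in DMSO (-1.04 ± 0.0784, adjusted p = 6.33e-15). TIMM44, which tethers HSPA9 to the inner membrane channel, had a change of -0.81 ± 0.0915 (adjusted p = 5.87e-10). The intermembrane space chaperones TIMM13 (-0.80 ± 0.107, adjusted p = 4.08e-08, 18.8% of its exonic length shared) and TIMM8A (-1.03 ± 0.155, adjusted p = 5.44e-07) fell too. TIMM8A, with 14.8 and 13.1 CPM at 2 h against 20.8 and 23.2 CPM in DMSO, was the only import gene called at 2 h (-0.66 ± 0.152, adjusted p = 0.00132). That count was 3 without DMSO replicate 1, 4 without DMSO replicate 2 and 4 with library size alone, and 2 in limma voom.

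Mitochondrial proteases, some of which degrade what the chaperones do not fold, gave 3 falls of 10 at 6 h and no rise. Their median was -0.15, and the share of falls was not far from the 18.6% of all genes called lower. Without DMSO replicate 2 there was 1 rise, and without DMSO replicate 1, 6 h replicate 1 or 6 h replicate 2 there were 2 falls. PMPCA, a subunit of the peptidase that cleaves targeting sequences, had 67.7 and 67.4 CPM at 6 h against 120 and 112 CPM in DMSO (-0.78 ± 0.0810, adjusted p = 6.67e-11). SPG7, an inner membrane protease subunit, fell at 2 h (-0.47 ± 0.0739) and 6 h (-0.36 ± 0.0738, adjusted p = 0.000118). CLPP (-0.26, adjusted p = 0.0302) lost its call under 5 of the 13 alternatives, among them those without DMSO replicate 1 (-0.11, adjusted p = 0.477), 6 h replicate 1 (-0.30, adjusted p = 0.0830) or 6 h replicate 2 (-0.23, adjusted p = 0.207). LONP1, the matrix protease, was not called (-0.10, adjusted p = 0.296).

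**Figure D4:**
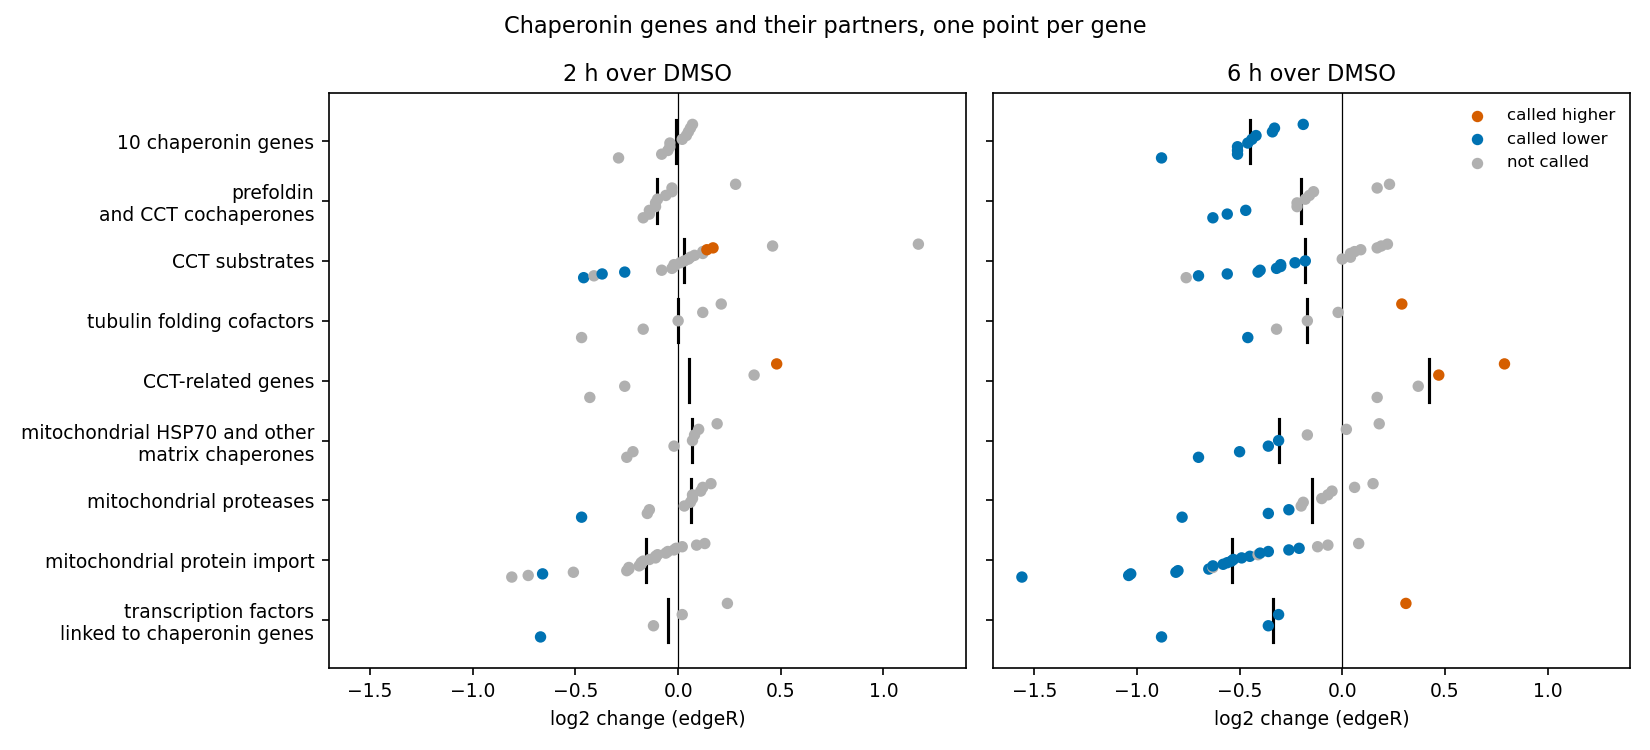
Log2 change in edgeR (horizontal axis) at 2 h over DMSO (left) and 6 h over DMSO (right), with a point for each tested gene, a row for each list and a bar at the median of the list. Blue points were called lower, orange points higher and grey points were not called. At 6 h all 10 chaperonin genes and 17 of 22 import genes are blue.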

How the data were processed

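RNA-seq counts of 6 JJN3 libraries (2 per group) were analysed. The authors deposited raw counts of fragments, obtained per the file headers by featureCounts 2.0.0 with GENCODE 34, ignoring strand, with a mapping quality of at least 20 and without fragments that overlap more than 1 gene. Trimmomatic, STAR and hg38 are named in the submitters' processing notes (with versions not given in the sources used here). A deposited column of the same table gives each gene's exonic length (another value per gene), used for CPM per kb. A record broken over lines was rejoined.

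Counts were fitted with edgeR 4.0.16 in R 4.3.3 (quasi-likelihood, all 6 libraries, a mean per group, TMM factors of 0.977 to 1.03, filterByExpr), which left 15548 genes, with Benjamini-Hochberg adjustment over all of them. For CPM values, the library's summed counts in these 15548 genes were multiplied by the TMM factor, and counts were divided by that product and scaled to 1000000. All 10 members passed that filter. The SE of a log2 change was derived from the F statistic. The spread was largely shared over genes (42.8 prior against 3 residual degrees of freedom). The fit was also run on simulated data with 200 changed genes, far fewer than the 5693 called at 6 h against DMSO. That run does not show how the fit behaves with so many changes, and no result rests on it. Alternatives were DESeq2 1.42.0, limma 3.58.1 voom, other scalings, no filter, only the groups compared, a replicate block and leaving out each library. The members, lists and rules were chosen with earlier results of these data known. The 10 members were named throughout, with up to 4 called genes of each other list by the smallest adjusted p at 6 h and called genes moving against their list. MKKS has 3 identifiers in the table, and the identifier with most counts was used. List genes that were not called are named after their values were seen. Figures were drawn with matplotlib 3.10.9.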

Additional observations from a re-analysis of the deposited data

Results flagged for a closer look

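For all 10 members the change from DMSO differed between the 2 times, by the test of 6 h against 2 h in edgeR. The log2 change of 6 h over 2 h was -0.43 for TCP1, -0.38 for CCT2, -0.39 for CCT3, -0.42 for CCT4 and -0.47 for CCT5. It was -0.46 for CCT6A, -0.26 for CCT7 and -0.39 for CCT8. For the mitochondrial pair it was -0.53 for HSPD1 and -0.59 for HSPE1. The direction was the same in all 10 members, and 13.1% of all genes tested were called lower in this comparison.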

How the results depend on the processing

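At 6 h against DMSO the number of members called was 9 or 10 under the 13 alternatives, with CCT7 the member lost, and at 6 h against 2 h it was likewise 9 or 10. At 2 h against DMSO it was 1 (HSPE1) with library size alone (-0.32, adjusted p = 0.0428), with the replicate block (-0.28, adjusted p = 0.0462) and in limma voom (-0.28, adjusted p = 0.0451), against 0 otherwise, and between 0 and 1 when a library was left out. Estimates that were not called changed sign at 2 h for CCT4 without DMSO replicate 2 (between -0.09 and 0.02 when a library was left out), and for HSPD1 with library size alone (-0.01) or without DMSO replicate 1 (between -0.02 and 0.07). The number of genes called at 2 h was between 1527 and 2911 when a library was left out (2642 with all), and for 6 h against 2 h between 2288 and 4661 (3772 with all). Fits with fewer libraries assume that a lone library varies like the other groups.

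Libraries with the same replicate number did not deviate together over all genes tested (correlations of -0.0054, -0.0381 and -0.0205 between the groups). Noise of genes with low counts weakens such correlations, so this check cannot exclude a pairing. The deposited column names give libraries of the same replicate number the same letter, with its meaning not stated. The main fit used no pairing, and the replicate block changed no call of a member other than that of HSPE1 at 2 h. Depth limits HSPE1 more than the others, since it had between 590 and 1248 counts per library where each other member had at least 3198.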

Other observations

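Among genes related to CCT in sequence, calls were upward. Of 4 tested genes, CCT6B, a zeta subunit known from testis, and MKKS, a CCT-like protein needed to assemble the ciliary BBSome, were called higher at 6 h, where 18.0% of all genes were called higher. CCT6B had 6.23 and 5.39 CPM at 6 h, against 3.77 and 2.98 CPM in DMSO (log2 change 0.79 ± 0.278, adjusted p = 0.0217), while CCT6A, its counterpart in most tissues, fell. The CCT6B call was lost in DESeq2 (adjusted p = 0.0802) and without DMSO replicate 2 (0.63, adjusted p = 0.140) or 6 h replicate 1 (0.68, adjusted p = 0.147). MKKS had 20.8 and 25.4 CPM at 6 h, against 16.9 and 16.5 CPM in DMSO (0.47 ± 0.139, adjusted p = 0.00655), and was not called without 6 h replicate 2 (0.32, adjusted p = 0.207). It was also called at 2 h (0.48 ± 0.139, adjusted p = 0.0119), but not without 2 h replicate 2 (0.47, adjusted p = 0.0753). BBS10 (0.17) and BBS12 (0.37) were not called at 6 h. The 5 cofactors that fold tubulin after CCT gave 1 call in each direction at 6 h, near the shares over all genes (18.6% lower and 18.0% higher). TBCD fell (-0.46 ± 0.0965, adjusted p = 0.000161) and TBCB rose (0.29 ± 0.0945, adjusted p = 0.0137) at 6 h, and TBCB was not called without 6 h replicate 1 (0.24, adjusted p = 0.185). Without DMSO replicate 2 there were 2 falls among the 5.

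Of 4 genes of transcription factors linked to chaperonin genes, 3 fell and 1 rose at 6 h, beside 18.6% of all genes called lower and 18.0% higher. HSF1, the main activator of heat shock genes, had 170 and 165 CPM at 6 h, against 216 and 199 CPM in DMSO (-0.31 ± 0.0681, adjusted p = 0.000250), a fall called under each of the 13 alternatives. MYC had 464 and 462 CPM at 6 h, against 884 and 824 CPM in DMSO (-0.88 ± 0.0547, adjusted p = 9.57e-18). MYC was the only factor of the list already called at 2 h, with 537 and 534 CPM (-0.67 ± 0.0545, adjusted p = 1.88e-13), at a time when no chaperonin gene was called. ATF5, linked to the mitochondrial stress response, stood at -0.36 (adjusted p = 0.0392) and lost its call under 8 alternatives (adjusted p between 0.0503 and 0.310), which left out either DMSO replicate or either 6 h replicate among others. HSF2 stood at 0.31 (adjusted p = 0.0484) and lost its call under 10 (0.0510 to 0.330), among them those that left out DMSO replicate 1 or any of the 4 WNK463 libraries. What these factors contribute to the chaperonin genes was not tested.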
